A study of Mus musculus with 4 samples.

Results

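The genes of 10 transcription factors that set the identity or the resting state of regulatory T (Treg) cells were examined, namely Foxp3, the Ikaros family genes Ikzf2, Ikzf4, Ikzf1 and Ikzf3, the forkhead genes Foxo1 and Foxp1, the TCF/LEF genes Tcf7 and Lef1, and Bach2. They were chosen by name, with earlier results of these data known, and all 10 were among the 24087 genes of the deposited table. The RNA-seq libraries came from the spleen of C57BL/6 mice, whose Treg cells had been isolated as CD3+CD4+YFP+ cells. The KO mice were Foxp3Cre-YFPSetd2f/f, with both alleles of Setd2 floxed. The control (CTRL) mice were Foxp3Cre-YFPSetd2f/+ littermates, which carry Cre and YFP as well and have 1 floxed allele. Each genotype had 2 libraries, and each library pooled the cells of 2 mice, about 1000000 cells. Setd2 encodes the methyltransferase that places trimethylation on lysine 36 of histone H3. Cre and YFP are expressed from the Foxp3 locus, so the cells were sorted by the activity of a locus whose own transcript is among those measured. The age of the mice was not in the labels, and p-values measure the spread between pools of mice.

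Foxp3 is the forkhead factor that defines the Treg lineage, and loss of its function leads to fatal autoimmunity. It works with partner factors and corepressors, among them the Ikaros family zinc-finger proteins Helios (Ikzf2) and Eos (Ikzf4). A second group of factors keeps T cells in a resting, lymphoid-tissue-homing state. In naive T cells and central Treg cells, Foxo1, Foxp1, Tcf7, Lef1 and Bach2 support the expression of homing and survival genes or hold back effector genes, and activation through the T cell receptor and PI3K-Akt signalling lowers the activity of several of them.

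The libraries were of similar depth, with a relative depth of 1 to 1.08 and at least 30577738 to 33186315 reads recovered from the steps of the deposited values. CTRL 1 had 19100 genes above 0, against 15913 to 16410 in the other 3 libraries. Setd2, the targeted gene, stood at 23.4 FPKM (fragments scaled by gene length and library total) in CTRL 1, 25.3 FPKM in CTRL 2, 21.3 FPKM in KO 1 and 19.5 FPKM in KO 2. The KO values were the lower pair, at a mean of 0.839 times the control level, and the difference did not pass the test of all genes (log2 fold change -0.24 ± 0.076 SE, limma adjusted p = 0.0970). That value covers all exons of Setd2, also those outside the floxed part. For splenic Treg cells of this KO genotype, the paper reported abrogated Setd2 protein by flow cytometry. It also reported a drastic reduction in those cells of the histone mark that Setd2 places. Marker genes of T cells (Cd3d, Cd3e, Cd3g, Cd4) and of Treg cells (Foxp3, Il2ra, Ctla4, Ikzf2) were high in each library. The 8 B cell markers summed to 19.5 to 23.8 FPKM in CTRL and 19.4 to 35.3 FPKM in KO, and the 8 myeloid and dendritic markers to 105 to 167 FPKM in CTRL and 85.1 to 206 FPKM in KO. The erythroid markers found in the table (3 of 4 listed) summed to 2.22 to 12.2 FPKM in CTRL and 5.02 to 19.9 FPKM in KO. In these 3 lists the sum was higher in replicate 1 than in replicate 2 of both genotypes.

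In KO Treg cells all 10 factors were still transcribed within 0.809 to 1.13 times their CTRL level. None of the 10 passed the test, whereas 581 of 11399 genes tested were higher in KO (5.10%) and 530 were lower (4.65%). The test was limma on log2(FPKM + 1), two-sided, with an adjusted p under 0.05 as the threshold. At those rates about 1 gene in 10 would be called, so a count of 0 does not set the factors apart from other genes. Before adjustment 2 of the 10 were under 0.05 in limma, Bach2 in the lower direction and Ikzf2 in the higher one. Over all genes tested, 34.7% were under 0.05 before adjustment. With limma-voom on recovered reads, 1 of the 10 factors passed, and that was Bach2, in the lower direction. That test called 878 of the 11399 genes higher and 1009 lower, so 1 in 10 does not set the factors apart there either.

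The median log2 fold change of the 10 factors was -0.048, against -0.022 over all genes tested, and their median size without the sign was 0.12, against 0.16. Both KO libraries lay above both CTRL libraries for 1 factor (Ikzf2; 29.0% of all genes tested did so) and below them for 4 factors (Bach2, Ikzf4, Foxp3 and Foxp1; 35.5% of all genes). For the other 5 factors the genotypes overlapped. The 95% intervals of the 10 fold changes ran from -0.46 to 0.35 at their outermost ends, so changes larger than these lie outside the intervals, and a p that misses the threshold does not show that a level is equal in both genotypes. With 2 libraries against 2, an exact permutation test of 1 gene cannot give a two-sided p below 0.333, and all p-values here come from the fit across all genes. In bulk RNA, fewer cells that express a gene and less of its RNA per cell cannot be told apart.

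**Figure D1:**
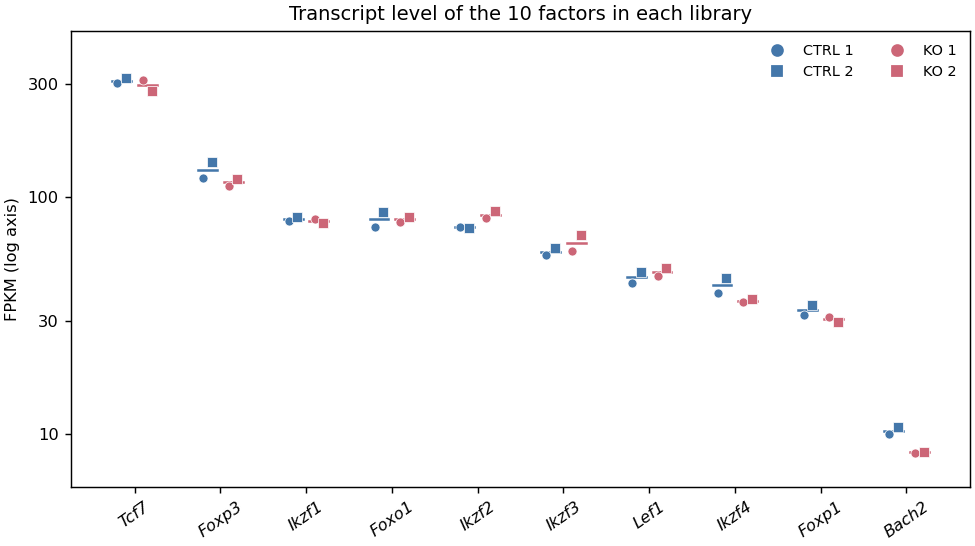
FPKM of the 10 factors on a log axis, ordered by their mean in CTRL. Each point is 1 library (circle, replicate 1; square, replicate 2; blue, CTRL; red, KO) and each bar the mean of 2 libraries. The KO points of Bach2, Ikzf4, Foxp3 and Foxp1 lie below both CTRL points, and those of Ikzf2 lie above.

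Foxp3 (ENSMUSG00000039521, chrX:7573644-7595245, plus strand, GRCm38) was at 121 FPKM in CTRL 1 and 140 FPKM in CTRL 2. It was at 112 FPKM in KO 1 and 119 FPKM in KO 2. The genotypes did not overlap, but CTRL 1 and KO 2 lay close together, and CTRL 2 stood above the other 3 libraries. Means were 130 ± 13.6 FPKM for CTRL and 115 ± 5.36 FPKM for KO (SD, n = 2 each). This gave a log2 fold change of -0.17, with an interval from -0.39 to 0.056 (limma adjusted p = 0.238). It was -0.28 without CTRL 1 and -0.063 without CTRL 2, so its size rested on which control library was compared, and the sign was the same in all 14 alternatives. At least 15482 reads lay behind each of the 4 Foxp3 values.

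Foxp3 shares its locus with other genes of the table, and the authors' use of strand in counting was not given in the sources used here. Flicr, a noncoding RNA annotated within the Foxp3 span on its strand and described as a regulator of Foxp3, was at 3.39 and 2.90 FPKM in the control libraries and at 2.04 and 2.19 FPKM in KO. Both KO values of Flicr lay below both CTRL values, and it did not pass the test (log2 fold change -0.41, limma adjusted p = 0.0772). Ccdc22 and Ppp1r3f overlap the ends of Foxp3 on the opposite strand, where their spans cover 1437 and 266 bases of its annotated exons. Both were higher in both KO libraries, the opposite direction to Foxp3, with 9.58 and 10.3 FPKM in CTRL against 11.3 and 12.2 FPKM in KO for Ccdc22 and 6.53 and 6.41 against 7.30 and 8.03 FPKM for Ppp1r3f. Neither passed the test (limma adjusted p = 0.119 for Ccdc22 and 0.143 for Ppp1r3f). Their part in the Foxp3 value was not tested.

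Of the Ikaros family, Ikzf2 had the highest log2 fold change of the 10 factors and Ikzf4 the second lowest. Ikzf2 (ENSMUSG00000025997, chr1:69531214-69687245, minus strand) encodes Helios, a factor of most thymus-derived Treg cells that stabilises their phenotype. It was at 74.9 FPKM in CTRL 1 and 74.2 FPKM in CTRL 2, against 81.6 FPKM in KO 1 and 87.0 FPKM in KO 2. The CTRL libraries were nearly equal and both KO libraries lay above them. The mean went from 74.6 ± 0.474 FPKM in CTRL to 84.3 ± 3.86 FPKM in KO (SD, n = 2 each), a log2 difference of 0.17 with an interval from 0.026 to 0.32 and a limma adjusted p of 0.106. Quantile normalization brought the log2 fold change of Ikzf2 down to 0.089, and the adjusted p ran from 0.0939 to 0.330 over the alternatives.

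Ikzf4 (ENSMUSG00000002578, chr10:128630843-128645991, minus strand) encodes Eos, a corepressor with which Foxp3 silences target genes. It was at 39.2 FPKM in CTRL 1 and 45.5 FPKM in CTRL 2, and at 35.9 FPKM in KO 1 and 37.1 FPKM in KO 2. Like those of Foxp3, the KO values were below both CTRL values, with CTRL 2 the highest library. Its log2 fold change was -0.20 (interval -0.42 to 0.017, limma adjusted p = 0.168), and it was -0.31 without CTRL 1 and -0.098 without CTRL 2.

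Ikzf1 (ENSMUSG00000018654, chr11:11685003-11772926, plus strand) encodes Ikaros, a regulator of lymphocyte development that is present in B cells as well as T cells. Its values were 79.3 and 81.9 FPKM in CTRL and 80.6 and 77.6 FPKM in KO. The genotypes overlapped, and with an interval of the log2 fold change from -0.17 to 0.11 Ikzf1 was the most narrowly bounded of the 10 factors (log2 fold change -0.027, limma adjusted p = 0.759). With quantile normalization its log2 fold change was -0.11.

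Ikzf3 (ENSMUSG00000018168, chr11:98464902-98546031, minus strand) encodes Aiolos, which is expressed by B cells and by differentiated T cells. It was at 56.8 and 60.8 FPKM in the control libraries and at 59.3 and 68.9 FPKM in KO. KO 2 was the highest library and KO 1 lay between the CTRL libraries. Aiolos transcripts had a log2 fold change of 0.12 (interval -0.11 to 0.35, limma adjusted p = 0.388), which came to 0.014 without KO 2 and 0.23 without KO 1.

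Bach2 had the largest difference of the 10 factors in either direction. It encodes a repressor that competes with AP-1 factors at effector genes and is needed for resting Treg cells. The gene (ENSMUSG00000040270, chr4:32238804-32586108, plus strand) spans 347 kb. It was at 10.0 FPKM in CTRL 1, 10.7 FPKM in CTRL 2, 8.34 FPKM in KO 1 and 8.40 FPKM in KO 2. The KO libraries were nearly equal and both lay below the CTRL libraries. Means were 10.3 ± 0.457 FPKM for CTRL and 8.37 ± 0.0428 FPKM for KO (SD, n = 2 each), a ratio of 0.809. On the log2 scale the difference was -0.28, with an interval from -0.46 to -0.089, and limma gave an adjusted p of 0.0718. The call depends on the test, since limma-voom on recovered reads gave -0.31 with an adjusted p of 0.0305. Over the alternatives the log2 fold change stayed between -0.32 and -0.21, and 71.9% of all genes tested had a smaller difference than the -0.28 of Bach2. The antisense gene Bach2os, which lies within the Bach2 span, was at 0.306 to 0.606 FPKM in the 4 libraries, below the level at which genes were tested.

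Foxo1 and Foxp1, forkhead factors of the resting state, showed no called difference. Foxo1 (ENSMUSG00000044167, chr3:52268336-52353221, plus strand) drives Klf2 and Il7r in resting T cells and is removed from the nucleus when Akt phosphorylates it. It was at 74.6 FPKM in CTRL 1 and 86.3 FPKM in CTRL 2, and both KO libraries lay between these, at 78.4 and 82.3 FPKM. The log2 fold change was 0.0010 (interval -0.22 to 0.22, limma adjusted p = 0.994), and its sign turned negative in 5 of the 14 alternatives, including scaling to the same FPKM sum (-0.013) and quantile normalization (-0.090). RNA levels do not show where the Foxo1 protein is in the cell.

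Foxp1 (ENSMUSG00000030067, chr6:98925338-99522721, minus strand) encodes a relative of Foxp3 that holds T cells in quiescence and spans 597 kb. Its values were 31.7 and 34.9 FPKM in CTRL and 31.2 and 29.8 FPKM in KO. KO lay below CTRL, though KO 1 and CTRL 1 differed by little. Its log2 fold change was -0.12 (interval -0.31 to 0.062, limma adjusted p = 0.287), and it was -0.19 without CTRL 1 and -0.053 without CTRL 2.

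Tcf7 was the most abundant of the 10 factors by FPKM, and neither it nor Lef1 passed the test. Tcf7 (ENSMUSG00000000782, chr11:52252371-52283014, minus strand) encodes TCF-1, a factor of naive and stem-like T cells. It was at 302 FPKM in CTRL 1, 317 FPKM in CTRL 2, 311 FPKM in KO 1 and 280 FPKM in KO 2. KO 2 was the lowest library, while KO 1 lay between the CTRL libraries. The log2 fold change was -0.069 (interval -0.25 to 0.12, limma adjusted p = 0.543). It came to 0.0058 without KO 2 and to -0.21 with quantile normalization (limma adjusted p = 0.0779).

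Lef1 (ENSMUSG00000027985, chr3:131110471-131224356, plus strand) encodes the related factor that shares many binding sites with TCF-1. It was at 43.3 and 48.3 FPKM in the control libraries and at 46.2 and 50.2 FPKM in KO. Replicate 2 was the higher library in both genotypes, and the genotypes overlapped. The log2 fold change was 0.073 (interval -0.13 to 0.28, limma adjusted p = 0.564) and came to -0.0053 without CTRL 1.

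**Figure D2:**
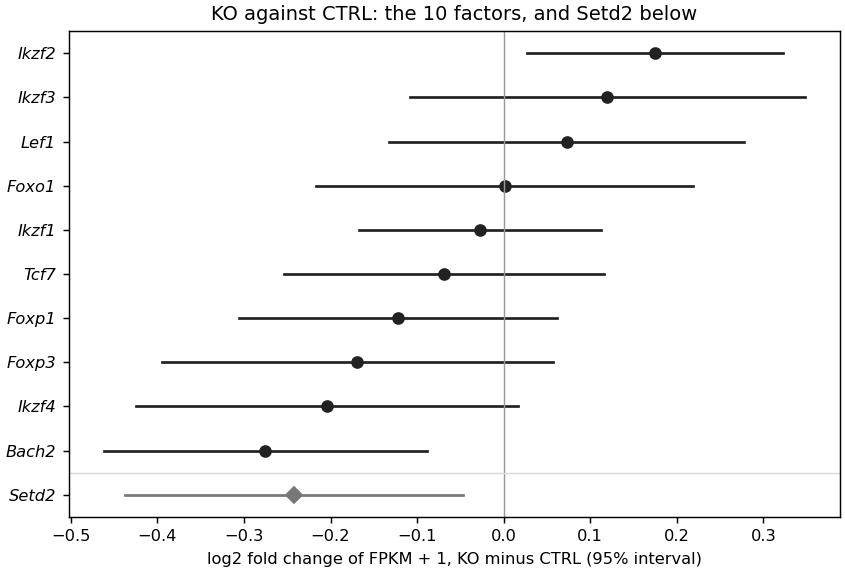
Log2 fold change (KO minus CTRL, on log2 of FPKM + 1) of the 10 factors, ordered by value, and of Setd2 below the line. Points are the fitted values and lines the 95% intervals, from -0.46 to -0.089 for Bach2 and from 0.026 to 0.32 for Ikzf2, the only members of the 10 whose interval leaves out 0.

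FPKM are scaled by gene length, which allows the factors to be ordered by level. In CTRL the order was Tcf7 (310 ± 10.5 FPKM), Foxp3 (130 ± 13.6), Ikzf1 (80.7 ± 1.84), Foxo1 (80.5 ± 8.28), Ikzf2 (74.6 ± 0.474), Ikzf3 (58.8 ± 2.77), Lef1 (45.8 ± 3.58), Ikzf4 (42.3 ± 4.48), Foxp1 (33.3 ± 2.30) and Bach2 (10.3 ± 0.457 FPKM, SD, n = 2 throughout). The libraries of Ikzf1 and Foxo1, of Foxo1 and Ikzf2, and of Lef1 and Ikzf4 overlapped, and the other neighbours were apart. In KO the order was the same except that Ikzf2 (84.3 ± 3.86 FPKM) moved ahead of Foxo1 (80.4 ± 2.74) and Foxo1 ahead of Ikzf1 (79.1 ± 2.12), and these neighbours overlapped as well. Lef1 (48.2 ± 2.81) and Ikzf4 (36.5 ± 0.877 FPKM) were apart in KO. By their mean FPKM over the 4 libraries, Bach2 stood at percentile 41.5 and Tcf7 at percentile 98.2 of all genes tested. A different gene model for the length, for example of the many Foxp1 transcripts, would move a gene's place in this order but not its fold change between genotypes.

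Ratios between factors within a library do not depend on how the libraries are scaled. For Ikzf2 over Foxp3 this ratio came to 0.621 (CTRL 1), 0.531 (CTRL 2), 0.731 (KO 1) and 0.730 (KO 2). Both KO libraries had a higher Helios to Foxp3 transcript ratio than both CTRL libraries. That separation is not a further observation, since Ikzf2 was higher and Foxp3 lower in both KO libraries. For Ikzf4 over Foxp3 the ratio came to 0.325 (CTRL 1), 0.326 (CTRL 2), 0.322 (KO 1) and 0.312 (KO 2). Eos transcripts thus stood in nearly the same proportion to Foxp3 in each library, and neither gene passed the test between genotypes. The ratio of Tcf7 to Lef1 was 6.99 and 6.56 in CTRL and 6.73 and 5.59 in KO, and the genotypes overlapped. The ratios were not tested.

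**Figure D3:**
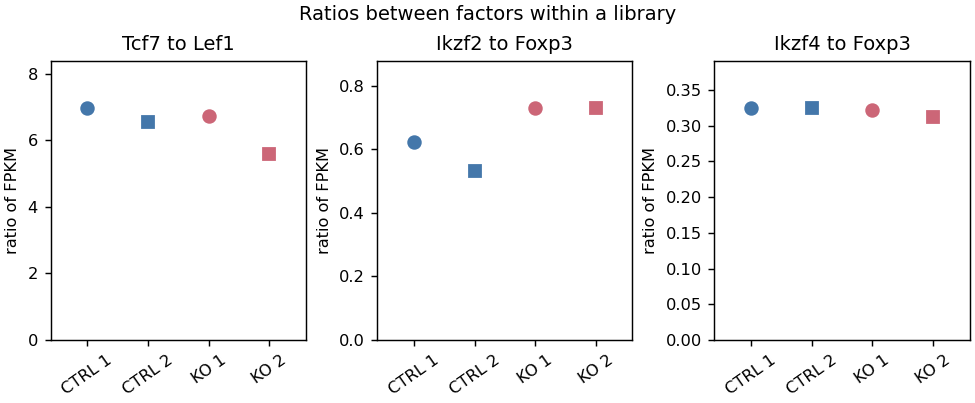
Ratio of the FPKM of 2 factors within each library, with axes from 0. Circles are replicate 1 and squares replicate 2, with CTRL in blue and KO in red. The ratio of Ikzf2 to Foxp3 is 0.531 to 0.621 in CTRL and 0.730 to 0.731 in KO, and that of Ikzf4 to Foxp3 lies between 0.312 and 0.326 in all 4 libraries.

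The relatives of the factors were examined next. Of 9 related family genes 6 were tested (Ikzf5, Foxo3, Foxo4, Foxp4, Bach1 and Tcf7l1), and 0 passed the limma threshold in either direction, with 0 at an unadjusted p under 0.05 and 0 under limma-voom. Over all genes tested, limma called 5.10% higher and 4.65% lower, and 34.7% were under 0.05 before adjustment. Limma-voom called 878 higher and 1009 lower of 11399. Beside these shares, counts of 0 in 6 do not set apart the relatives. Their median log2 fold change was 0.044. Foxp4 was the most abundant of them, at 49.1 and 56.8 FPKM in CTRL and 58.2 and 51.2 FPKM in KO, above Foxp1. Foxo6, Foxp2 and Tcf7l2 were too low to test.

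Of 32 genes for partners and corepressors of the factors, 30 were tested, 3 rose, 0 fell and 27 did not pass, with a median log2 fold change of 0.054. Beside the 5.10% of all genes that were higher, a count of 3 in 30 does not set the list apart. Runx3, which encodes a partner of Foxp3 in its complex with CBFβ, rose from 22.0 and 24.4 FPKM in CTRL to 30.1 and 32.7 FPKM in KO (log2 fold change 0.42, limma adjusted p = 0.0430). Nfatc1, which encodes a calcium-activated NFAT factor, rose from 57.5 and 57.9 FPKM to 71.0 and 69.6 FPKM (log2 fold change 0.28, limma adjusted p = 0.0420). Mta2, a subunit gene of the NuRD complex in which Ikaros proteins take part, rose by 0.24 (limma adjusted p = 0.0496), and this call was lost in 11 of the 14 alternatives. Without the intensity trend in the variance, 0 of the 3 genes passed.

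Of the 15 upstream regulator genes, which encode kinases and phosphatases of the PI3K-Akt pathway that controls Foxo1 and enzymes that modify Foxp3, all were tested and 0 passed in limma, with a median log2 fold change of -0.052. Beside the 5.10% of all genes that were higher and the 4.65% that were lower, 0 in 15 does not set the list apart. Limma-voom called 878 higher and 1009 lower of all 11399 genes tested, and in this list 1 higher and 1 lower. The higher one was Sgk1, a kinase gene of that pathway (15.8 and 13.8 FPKM in CTRL, 22.3 and 19.1 FPKM in KO, limma adjusted p = 0.0576), which is named after its values had been seen.

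Among genes that Treg cells characteristically express, some passed in each direction. Of 21 Treg core genes, 5 rose, 2 fell and 14 did not pass, with a median log2 fold change of 0.12, and over all genes tested 5.10% were higher and 4.65% lower. A count of 2 lower in 21 lies near that share. The 4 that rose most were Fgl2, which encodes a secreted suppressive molecule (from 10.4 and 10.4 to 21.5 and 20.3 FPKM, log2 fold change 0.95), Ebi3, a subunit gene of the cytokines IL-27 and IL-35 (0.65), Capg, an actin-capping protein gene (0.42), and Nrp1, which encodes neuropilin 1 (0.41). Gpr83, a receptor gene typical of Treg cells, fell from 36.8 and 44.2 FPKM to 18.7 and 22.7 FPKM (log2 fold change -0.93), and Nt5e, which encodes the ectonucleotidase CD73, fell from 75.6 and 73.6 to 54.8 and 56.6 FPKM (-0.42). The limma adjusted p of these 6 genes lay between 0.0299 and 0.0376.

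Genes of the resting T cell state were lower where they passed. Like the other lists, this one was chosen with earlier results of these data known. Of 25 genes tested, 0 rose, 7 fell and 18 did not pass, and the median log2 fold change was -0.24, against -0.022 over all genes tested. Among all genes tested, 5.10% were higher and 4.65% lower. Bcl2, the survival gene, fell from 36.2 and 35.3 FPKM in CTRL to 19.4 and 21.9 FPKM in KO (log2 fold change -0.77). Tsc22d3, a glucocorticoid-induced and Foxo-responsive gene, fell by 0.71 on the log2 scale, Pik3ip1, which encodes an inhibitor of PI3K, by 0.61, and Kbtbd11 by 0.53. The limma adjusted p of these 4 genes lay between 0.0306 and 0.0400. Of the genes that Foxo1 is known to drive, Il7r fell from 67.1 and 61.6 to 50.7 and 50.0 FPKM (log2 fold change -0.35, limma adjusted p = 0.0421), and Klf2 was at 353 and 386 FPKM in CTRL and 338 and 326 FPKM in KO (-0.15, limma adjusted p = 0.180). Il7r, which lies outside the 4 lowest genes of the list, and Klf2 are named after their values had been seen. Foxo1, Tcf7 and Lef1 stood at a log2 fold change of 0.0010, -0.069 and 0.073 in the same libraries.

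Effector Treg genes were higher where they passed, with 1 exception. This list too was chosen with earlier results of these data known. Of 23 genes tested, 9 rose, 1 fell and 13 did not pass, and the median log2 fold change was 0.42. Among all genes tested, 5.10% were higher and 4.65% lower, with a median of -0.022. Gzmb, which encodes granzyme B, rose from 17.0 and 14.6 FPKM to 36.6 and 47.2 FPKM (log2 fold change 1.34). S100a6, a calcium-binding protein gene, rose by 1.15, Nfil3, a transcription factor gene, by 0.97, and Il10, the gene of the suppressive cytokine IL-10, by 0.84. Il1rl1, which encodes the IL-33 receptor ST2, fell from 11.2 and 12.6 to 4.21 and 6.25 FPKM (log2 fold change -1.07). The limma adjusted p of these 5 genes lay between 0.0299 and 0.0405. Irf4 and Batf, whose products act at AP-1 composite sites that Bach2 can occupy, also rose, by 0.83 and 0.50. They were chosen after their values had been seen, and a link to the Bach2 level was not tested. The counts of the resting and effector lists fell to 0 with no filter on low genes and when any 1 of the 4 libraries was left out, as did the counts over all genes to 0 or 1.

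**Figure D4:**
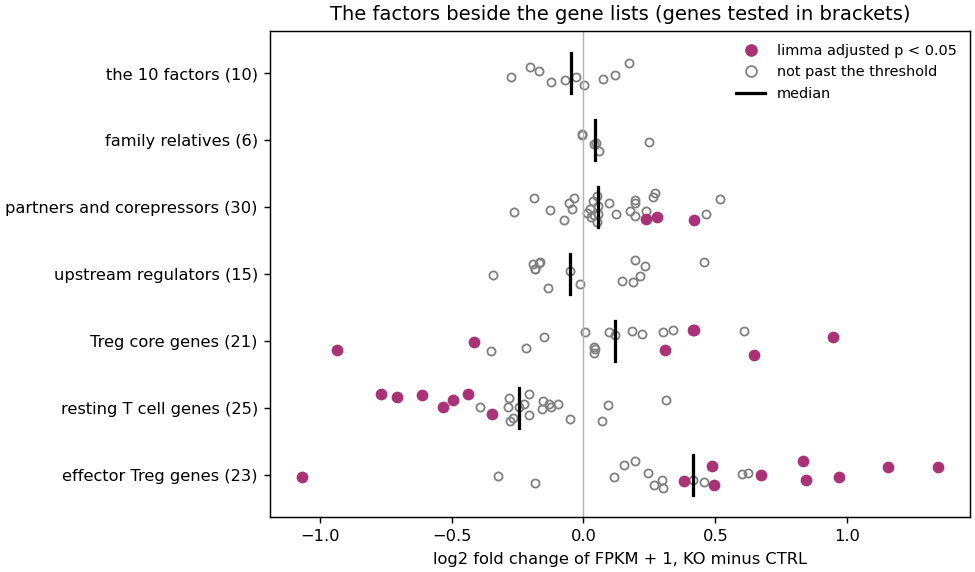
Log2 fold change (KO minus CTRL) of each tested gene of the 10 factors and of 6 gene lists. Filled points passed the limma threshold, open points did not, and vertical bars are medians. The 10 factors lie between -0.28 and 0.17 with 0 filled points, while 7 resting T cell genes are filled below 0 and 9 effector Treg genes above 0. Of all genes tested, 4.65% passed below 0 and 5.10% above 0. The lists were chosen with earlier results of these data known.

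The genes whose pattern over the 4 libraries lay nearest to those of Ikzf2 and Bach2 were sought among 8645 other genes with a mean FPKM above 5 in either genotype, by the Euclidean distance of centred log2(FPKM + 1). For Ikzf2 these were Polr2j, Snrpa1 and Ndufv3, at distances of 0.0087, 0.015 and 0.015. Polr2j, a subunit gene of RNA polymerase II, was at 57.0 and 56.9 FPKM in CTRL and 62.4 and 66.3 FPKM in KO. For Bach2 they were Ip6k1, Trbv15 and Ncdn, at distances of 0.016, 0.021 and 0.021. Ip6k1, an inositol phosphate kinase gene, was at 50.4 and 54.0 FPKM in CTRL and 43.2 and 43.4 FPKM in KO. With 4 libraries, many genes can share a pattern this closely.

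Several of the 10 factors are also expressed by cells other than Treg cells, Ikzf1, Ikzf3, Foxp1, Foxo1 and Bach2 by B cells and Tcf7, Lef1, Foxo1 and Bach2 by naive conventional T cells. The summed B cell markers stood at 23.8 and 19.5 FPKM in CTRL against 35.3 and 19.4 FPKM in KO, higher in replicate 1 of both genotypes. The 3 markers of conventional CD4 T cells summed to 51.0 to 51.4 FPKM in CTRL and 45.1 to 54.4 FPKM in KO, with Il2 at 0.0643 to 0.358 FPKM. Within that sum 2 genes went opposite ways. Cd40lg was at 22.3 and 23.1 FPKM in CTRL and higher in KO, at 27.2 and 26.8 FPKM. Tnfsf8 was at 29.05 and 27.8 FPKM in CTRL and lower in KO, at 26.8 and 18.1 FPKM. The 4 markers of CD8 T and NK cells summed to 11.1 to 13.7 FPKM in CTRL and 12.8 to 13.7 FPKM in KO. Most of that sum was Cd8b1 (8.33 and 11.2 FPKM in CTRL, 10.3 and 11.1 FPKM in KO), while Cd8a was at 0.156 to 0.326 FPKM. In each of these lists 0 genes were at 0 in all 4 libraries. In limma 0 of the marker genes tested passed, beside 5.10% higher and 4.65% lower over all genes tested. The part of other cells in the levels of the 10 factors was not tested.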

How the data were processed

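Per the labels and the methods, poly(A) RNA of the sorted cells was captured on oligo(dT) beads and read from both ends over 150 bp. The authors mapped reads to mm10 (GRCm38) with HISAT2 2.2.1 and counted them per gene with featureCounts 2.0.1. The deposited values were FPKM, made by the authors, for 24087 genes. The gene length, annotation, strand setting and handling of multi-mapped reads were not given in the sources used here. Columns named WT and a number were read as the CTRL libraries of that number.

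Here limma 3.58.1 (R 4.3.3) was fitted (lmFit, then eBayes with an intensity trend) to log2(FPKM + 1) of the 11399 genes that reached an FPKM of 1 in at least 2 libraries, with p adjusted by Benjamini-Hochberg over all of them. Fold changes on this scale understate those of low genes. The study's edgeR test needs counts and was not used. Whole reads were recovered from FPKM ratios between libraries for 99.945% of the 19888 genes above 0, as lower bounds, and 2500 was the least number behind a value of the 10 factors. The fit was run on simulated data whose changes were larger than those of the 10 factors, so that run does not bear on differences of their size. Positions came from GENCODE vM21. Overlapping genes were taken from the same annotation.

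The 10 factors and all gene lists were chosen with earlier results of these data known. Named genes were the 10 factors, Setd2, up to 4 highest and 4 lowest called genes of each list, and the 3 nearest patterns to the factors with the highest and the lowest fold change. Outside this rule, Flicr, Ccdc22, Ppp1r3f and Bach2os are named for their position, marker genes as such, the 9 family relatives as a whole, and Foxp4, Sgk1, Il7r, Klf2, Irf4 and Batf after their values had been seen. Alternatives were another pseudocount, filters, scalings, variance models, the replicate number as a block and leaving out each library. The limma-voom fit was added after the data had been seen. Some genes of these lists are counted but not reported here by name.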

Additional observations from a re-analysis of the deposited data

How the results depend on the processing

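Of the 10 factors, 0 were called higher under any of the 14 alternatives. Under limma-voom on recovered reads 1 was called lower, Bach2 (-0.31), beside 1009 lower of all 11399 genes tested. The sign of Foxo1 reversed with the same FPKM sum (-0.013), quantile normalization (-0.090) and limma-voom (-0.0016). Leaving out each library in turn gave -0.10 to 0.10 for Foxo1, -0.14 to 0.0058 for Tcf7 and -0.0053 to 0.15 for Lef1, and the sign changed without CTRL 1 or KO 2 for Foxo1, without KO 2 for Tcf7 and without CTRL 1 for Lef1. The cause of these reversals was not tested. The other 7 factors and Setd2 kept their direction in all 14 alternatives.

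The counts of called genes depended on the number of libraries and on the variance model. Leaving out any library left 0 to 1 genes higher, 0 to 1 genes lower and 0 to 0 in each gene list, and the single library that then stands for a genotype is assumed to vary like the other genotype. With no filter 0 genes passed in either direction or in any list. Without the intensity trend 315 genes were higher, with 0 of the partners, 2 of the Treg core genes and 5 of the effector Treg genes higher and 4 resting T cell genes lower. Quantile normalization left 1 partner higher. Limma-voom called 878 genes higher and 1009 lower, with 5 partners, 1 upstream regulator and 1 resting T cell gene higher and 1 upstream regulator lower. The filter on mean FPKM above 5 and the robust variance each called 1 upstream regulator higher, 1 lower and 1 resting T cell gene higher. Median-ratio scaling called 1 upstream regulator and 1 resting T cell gene higher, and the same FPKM sum called 1 upstream regulator lower. The cause of these changes was not tested.

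The libraries share replicate numbers, but no label ties a number to a litter or a day, and there are 2 pairs. The deviations of same-numbered libraries from their genotype mean correlated across genes with Pearson's r of 0.34 and Spearman's rho of 0.055. Adding the replicate number as a block raised the calls to 968 higher and 805 lower, with 1 upstream regulator and 1 resting T cell gene higher and 11 resting T cell genes lower. The block called 0 of the 10 factors, with an adjusted p of 0.0865 for Bach2 and 0.130 for Foxp3. At least 2500 reads lay behind each value of the 10 factors, and each genotype had 2 libraries.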
